A study of Mus musculus with 9 samples.

Results

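A set of 10 genes of inflammatory signalling was followed in mouse bone marrow-derived macrophages (BMDMs), the precursors from which RANKL makes osteoclasts. They were chosen by gene name, and each of the 10 was found among the 28379 genes of the deposited table: the interleukin genes Il1a, Il1b, Il1rn, Il6, Il10 and Il18, the tumour necrosis factor gene Tnf, and the inflammasome genes Nlrp3, Casp1 and Pycard. BMDMs from C57BL/6 mice, which the study's methods describe as 10 weeks old and C57BL/6J, were cultured for 48 h in every group with M-CSF (20 ng/ml), the growth factor that keeps macrophages alive. PBS cultures had no further addition, RANKL cultures had 100 ng/ml of RANKL, and RANKL + Vit D + K cultures, called the vitamin group below, had the same RANKL together with vitamin D (calcitriol, 1000 nM) and vitamin K (menaquinone-4, MK4, 20 μM in the labels and a higher concentration in the study's methods). Each group had 3 libraries, and no group received a vitamin alone or the vitamins without RANKL, so the parts of calcitriol and MK4 cannot be told apart. The labels do not tie the libraries to separate cultures or animals, and the methods speak of pooled RNA, so the p-values below measure the spread between these libraries, which may be technical.

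Interleukin-1 alpha (Il1a) and interleukin-1 beta (Il1b) are pro-inflammatory ligands of the same receptor, and the product of Il1rn is an antagonist that occupies this receptor without signalling. Interleukin-1 beta and interleukin-18 are made as inactive precursors that caspase-1 (Casp1) cuts after the sensor NLRP3 has bound the adaptor ASC, the product of Pycard, in the complex called the inflammasome. TNF and interleukin-6 are further pro-inflammatory cytokines of macrophages, and interleukin-10 dampens their production. Interleukin-1 and TNF are known to promote osteoclast formation alongside RANKL. Transcript levels alone do not report the cutting or release of these proteins.

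The libraries held between 65915112 and 68229647 counts, so depth was nearly equal. Levels are given as counts or as FPKM, a level per transcript length and sequencing depth. Treatment genes followed the labels: Acp5 and Ctsk, which encode the osteoclast enzymes TRAP and cathepsin K, and the osteoclast receptor gene Oscar rose with RANKL by 5.57, 4.83 and 7.42 on the log2 scale (adjusted p = 0.00514, 0.00037 and 0.011, edgeR, the Oscar call being lost without PBS replicate 1, at 0.0518, or 3, at 0.0541). Cyp24a1, the calcitriol-degrading enzyme and a textbook vitamin D target, had 0 counts in each RANKL library and 39, 113 and 64 in the vitamin libraries (at least 24.1-fold higher against a floor of 3 counts per library, adjusted p = 0.0051, edgeR). Replicate 2 of the vitamin group stood apart: among the 3 vitamin libraries it was the one nearest to the RANKL mean for 59.1% of the 17002 genes tested, against 17.8% for replicate 1 and 23.1% for replicate 3. For the 10 genes, values without this library are given where leaving it out changed a call or moved a fold over 1.5 times. Macrophage markers were detected for 7 of 7 genes in each group, but their summed level was 44600 to 51800 CPM (counts divided by library size) in the PBS group, 28100 to 41300 in the RANKL group and 8300 to 19500 in the vitamin group (9090 to 10400, 6100 to 8180 and 3620 to 4370 without Lyz2). In the vitamin group 5 of the 7 were lower and Cd68 was higher than in the RANKL group (edgeR), beside 17.2% of all tested genes lower and 16.4% higher. The marker lists of dendritic, T or NK, B, mast and stromal cells each summed to at most 4.59 CPM in any library. The deposited table held only 1 of 5 T or NK genes (Cd2), 2 of 5 mast cell genes and 3 of 4 B cell genes, so their sums are incomplete. The dendritic sum was 0.349 to 0.861 CPM with PBS, 2.52 to 2.94 with RANKL and 0.0607 to 0.631 with the vitamins. In these bulk libraries, fewer cells of a type and less RNA per cell cannot be told apart.

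The interleukin-1 genes moved in opposite directions with the vitamins: Il1b was not counted in any vitamin library, while Il1a and Il1rn were higher than in the RANKL group. The rule for a call throughout is an adjusted p under 0.05 in edgeR's quasi-likelihood test. Of the 10 genes, Il1rn alone was called between the RANKL and PBS groups, where it rose. The fit blocked on replicate number, a pairing that the labels do not state, also called Il1b, lower. Over the 17002 genes tested, 2.35% were called higher and 1.26% lower in that comparison. In the vitamin group against the RANKL group, 2 of the 10 genes were called higher (Il1a and Il1rn) and 4 lower (Il1b, Il10, Il18 and Pycard), beside 16.4% of all tested genes higher and 17.2% lower. Against the PBS group, the vitamin libraries had 2 of the 10 higher (Il1a and Il1rn) and 6 lower (Il1b, Il10, Il18, Nlrp3, Casp1 and Pycard), beside 19.8% and 21.0% of all tested genes. Il6 was too low to be tested. Each group enters 2 of these comparisons, so they share libraries, and no test of the 10 genes as a set was made.

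**Figure D1:**
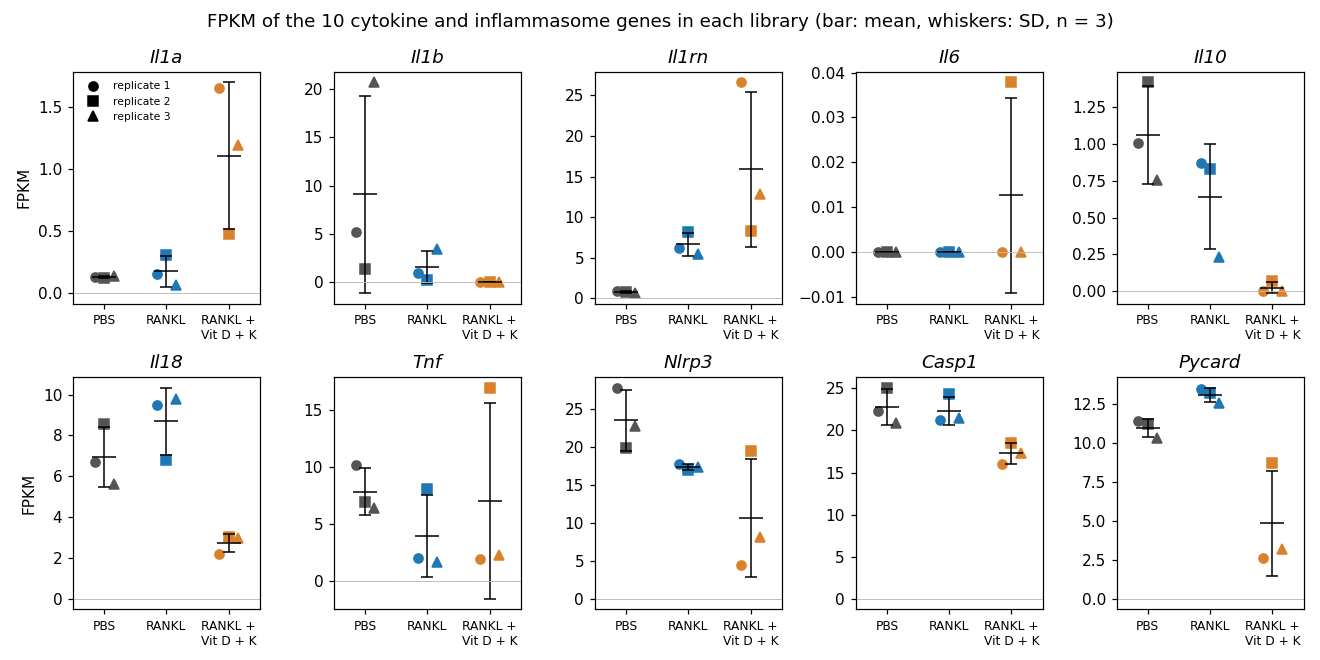
FPKM (y axis, linear, a different range in each panel) of the 10 genes in the 9 libraries, by group on the x axis. Each symbol is a library (circle, replicate 1; square, replicate 2; triangle, replicate 3), and the bar and whiskers are the mean and SD of 3 libraries. Il1b is at 0 in the 3 vitamin libraries, and replicate 2 of the vitamin group has the highest vitamin value for Tnf (17 FPKM), Nlrp3 (19.4 FPKM) and Pycard (8.69 FPKM).

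Il1b (ENSMUSG00000027398) and Il1a (ENSMUSG00000027399) lie close together on the minus strand of chromosome 2 (GRCm38), from 129364570 to 129371139 and from 129299610 to 129309972. Il1rn (ENSMUSG00000026981) lies on the plus strand of the same chromosome, from 24336853 to 24351494. Their promoter windows are printed because these neighbouring ligand genes and the antagonist gene differed in direction. Each window runs from 250 bases before to 50 bases after a transcription start in RefSeq (GRCm38.p6), read 5′ to 3′ on the gene's strand, and capitals mark matches on either strand to the motifs C/EBP (TTNNGNAA), AP-1 (TGANTCA) or TATA box (TATAAA). Il1rn has 3 annotated windows, of which the first start and the start farthest downstream are shown.
Il1b promoter, chr2:129371090-129371389, minus strand: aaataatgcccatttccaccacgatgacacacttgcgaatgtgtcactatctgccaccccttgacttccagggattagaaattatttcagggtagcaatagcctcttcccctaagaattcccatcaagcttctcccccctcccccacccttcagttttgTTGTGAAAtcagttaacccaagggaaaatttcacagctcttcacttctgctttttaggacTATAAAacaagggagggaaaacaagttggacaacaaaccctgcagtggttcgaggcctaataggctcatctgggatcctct
Il1a promoter, chr2:129309923-129310222, minus strand: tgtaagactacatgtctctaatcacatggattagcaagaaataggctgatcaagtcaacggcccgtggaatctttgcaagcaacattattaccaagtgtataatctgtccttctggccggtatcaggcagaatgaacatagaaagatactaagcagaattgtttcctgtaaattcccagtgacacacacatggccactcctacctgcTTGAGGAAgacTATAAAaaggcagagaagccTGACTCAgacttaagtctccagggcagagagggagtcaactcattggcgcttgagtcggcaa
Il1rn promoter, first start, chr2:24336610-24336909, plus strand: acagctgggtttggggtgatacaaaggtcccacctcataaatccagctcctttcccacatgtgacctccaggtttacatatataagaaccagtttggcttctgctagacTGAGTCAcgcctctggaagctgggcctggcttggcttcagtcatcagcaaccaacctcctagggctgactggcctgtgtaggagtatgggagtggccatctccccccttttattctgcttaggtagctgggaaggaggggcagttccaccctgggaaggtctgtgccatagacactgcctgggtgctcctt
Il1rn promoter, start farthest downstream, chr2:24345121-24345420, plus strand: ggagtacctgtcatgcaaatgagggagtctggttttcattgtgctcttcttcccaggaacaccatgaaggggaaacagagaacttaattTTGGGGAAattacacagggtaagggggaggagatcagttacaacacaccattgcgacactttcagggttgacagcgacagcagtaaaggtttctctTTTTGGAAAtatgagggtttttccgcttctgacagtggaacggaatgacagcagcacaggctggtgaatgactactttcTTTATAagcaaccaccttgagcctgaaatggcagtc

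The Il1b and Il1a windows each hold a TATA box, from base -31 to -26 and from -32 to -27 counted from the start, and each holds a C/EBP match, from -91 to -84 and from -43 to -36. The Il1a window also holds an AP-1 match from -12 to -6, and the first Il1rn window one from -141 to -135. At the Il1rn start farthest downstream, the matches are C/EBP from -161 to -154 and overlapping C/EBP matches from -65 to -58 and from -64 to -57. The TATA box letters also match there, from 15 to 20 after the start, but on the opposite strand. Windows were found for 9 of the 10 genes, 12 in all, and Il10 had none in the table used. Of these 12 windows, 9 hold a C/EBP match, 5 a TATA box match, 3 an AP-1 match and 2 (Il6 and a window of Nlrp3) an NF-kB match. The TATA box match of Il18, from -175 to -170, is also on the opposite strand. In all, 0 windows hold a vitamin D response element of direct repeats spaced by any 3 bases. Among all 32851 RefSeq windows of 300 bases, 40.7% hold C/EBP, 13.6% the TATA box, 7.81% AP-1, 8.46% NF-kB and 0.0396% the vitamin D response element. These are letter matches, and neither a match nor its lack says whether a factor binds there.

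Il1b spanned the widest range of the 10 genes. The PBS libraries had 735, 196 and 2954 counts in replicates 1, 2 and 3 (FPKM 5.22, 1.36 and 20.7), the RANKL libraries had 142, 32 and 506 (FPKM 0.992, 0.213 and 3.4), and each vitamin library had 0. Replicate 3 was the highest and replicate 2 the lowest in both the PBS and the RANKL group, so the groups overlapped although each RANKL library lay below the PBS library of its own number. Within a number, the PBS level was 5.26, 6.38 and 6.09 times the RANKL level. The test without pairing gave a log2 fold change of -2.67 (SE 1.2, adjusted p = 0.296, edgeR), and the fit blocked on the replicate number gave -2.65 with an adjusted p of 0.00597 (edgeR), which is a call. Without pairing, the value was -1.14 without PBS replicate 3 (adjusted p = 0.771, edgeR) and -4.03 without RANKL replicate 3 (adjusted p = 0.211, edgeR). Same-numbered PBS and RANKL libraries deviated together weakly across genes, which is why the blocked value is given. The labels state no such pairing, and the block was fitted over all 9 libraries, the vitamin libraries among them.

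With the vitamins, Il1b was at least 74.5-fold lower than in the RANKL group (adjusted p = 0.0169, edgeR) and at least 438-fold lower than in the PBS group (adjusted p = 0.00512, edgeR), each against a floor of 3 counts per library. Replicate 3 carried both bounds: they were 29 without RANKL replicate 3 and 157 without PBS replicate 3. On the log2(FPKM + 1) scale of limma, which compresses low values, the difference from the RANKL group was -1.14 (adjusted p = 0.259) and was not a call. The antisense gene Il1bos overlaps Il1b and had 8 counts over the 9 libraries, and reads of the 2 strands cannot be told apart where counting ignores strand. The summed neutrophil markers were 276 to 484 CPM in the PBS, 127 to 255 CPM in the RANKL and 39.5 to 86.4 CPM in the vitamin group. Mmp8, which encodes a neutrophil collagenase, made most of the sum in PBS and vitamin libraries, and the other 10 markers summed to 10.2 to 126, 11.5 to 150 and 0.485 to 1.44 CPM. Between PBS and RANKL, where 3.61% of all tested genes were called, 1 of the 10 tested was, Mmp8, from 17534 to 24135 counts down to 7094 to 9191 (-1.48, SE 0.231, adjusted p = 0.0125, edgeR), and the median log2 fold change of the list was 0.13. In the vitamin group 7 of the 11 (Camp, Cxcr2, Elane, Ltf, Ly6g, Mpo and Retnlg) were at 0 and 8 of the 10 tested were lower than in the RANKL group, beside 17.2% of all tested genes. In the PBS and RANKL groups replicate 3 had the lowest sums (276 and 127 CPM) and replicate 2 the highest (484 and 255 CPM). The part of these markers in the Il1b differences was not tested.

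Il1a, the other ligand gene, was near the lower end of detection without the vitamins. It had 20, 19 and 21 counts in the PBS libraries, 23, 46 and 10 in the RANKL libraries, and 244, 73 and 176 in the vitamin libraries (FPKM 1.65, 0.479 and 1.19). Every vitamin library exceeded every RANKL and PBS library, with the lowest value in replicate 2. Il1a rose by 2.86 on the log2 scale against RANKL (SE 0.641, adjusted p = 0.00988, edgeR) and by 3.09 against PBS (SE 0.651, adjusted p = 0.00569, edgeR). Against RANKL the value was 3.48 without RANKL replicate 2 (adjusted p = 0.0106, edgeR) and 3.87 without replicate 2 of every group (adjusted p = 0.000917, edgeR). No change was called between RANKL and PBS (0.23, 95% interval from the test's degrees of freedom -1.18 to 1.64, adjusted p = 0.897, edgeR). The transcript Gm14023 lies opposite Il1a and had 195 counts over all libraries.

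Il1rn, the antagonist gene, stepped up in both comparisons. Its counts were 396, 313 and 272 in the PBS libraries, 2576, 3399 and 2380 in the RANKL libraries, and 11021, 3521 and 5340 in the vitamin libraries. The 3 groups did not overlap, although replicate 2 of the vitamin group (3521) lay close to the highest RANKL library (3399). Mean FPKM was 0.789 ± 0.159 (SD, n = 3) with PBS, 6.65 ± 1.4 with RANKL and 15.9 ± 9.55 with RANKL and the vitamins. RANKL raised Il1rn by 2.93 on the log2 scale (SE 0.437, adjusted p = 0.0103, edgeR), and within a replicate number the RANKL level was 6.44, 11 and 8.44 times the PBS level. The call was lost when PBS replicate 3 was left out (2.88, adjusted p = 0.0584, edgeR).

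The step from RANKL to the vitamins was 1.46 for Il1rn (SE 0.41, adjusted p = 0.0238, edgeR). It was not called without RANKL replicate 1 (1.43, adjusted p = 0.0799), without RANKL replicate 3 (1.37, adjusted p = 0.0835), without vitamin replicate 1 (0.79, adjusted p = 0.0646) or in a fit of these 2 groups alone (1.44, adjusted p = 0.0577, all edgeR). Against PBS the vitamin libraries were higher by 4.40 (SE 0.465, adjusted p = 0.000346, edgeR), a call that held in each alternative fit, with 3.79 without vitamin replicate 1 (adjusted p = 0.000511, edgeR). Set side by side per length, the ratio of Il1rn to Il1b FPKM was 0.185, 0.55 and 0.0315 in the PBS libraries and 6.27, 38.5 and 1.62 in the RANKL libraries. Thus Il1b exceeded Il1rn in each PBS library and Il1rn exceeded Il1b in each RANKL library. In the vitamin libraries Il1b was listed at 0 and the ratio has no value.

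**Figure D2:**
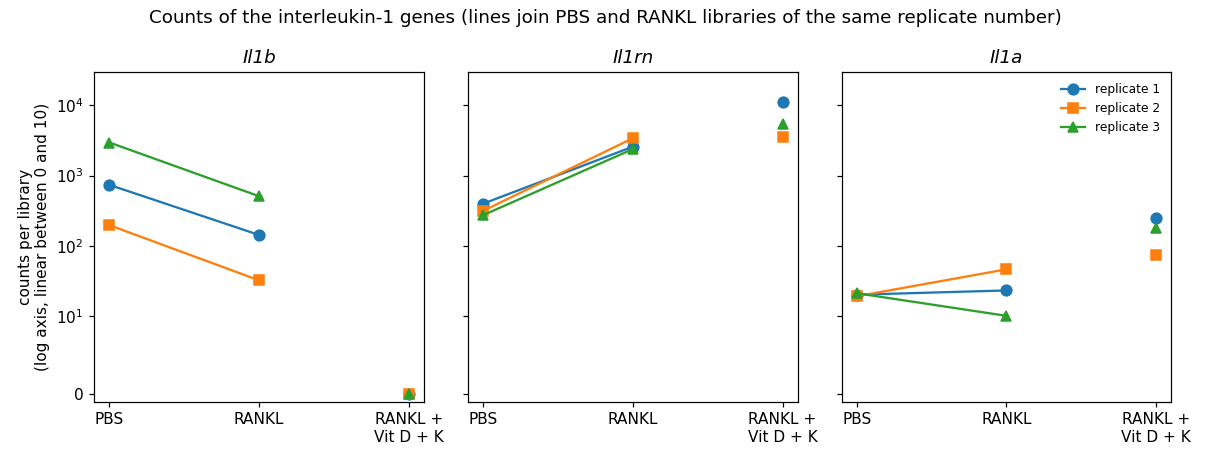
Counts per library (y axis, logarithmic above 10 and linear between 0 and 10) of Il1b, Il1rn and Il1a in the 3 groups (x axis). Each point is a library, and lines join PBS and RANKL libraries with the same replicate number. The Il1b lines fall in parallel from PBS to RANKL and the 3 vitamin libraries lie at 0, Il1rn rises along each line, and the Il1a points of the vitamin libraries (73 to 244 counts) lie above the other 6.

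The inflammasome genes Nlrp3, Casp1 and Pycard had the 3 highest mean FPKM of the 10 genes with PBS and with RANKL, but not with the vitamins, where Il1rn and Tnf ranked above Pycard. For Tnf this came from replicate 2: in vitamin replicates 1 and 3 it had 1.93 and 2.24 FPKM, against 2.63 and 3.17 for Pycard. Nlrp3 (ENSMUSG00000032691, chromosome 11, 59541568 to 59566956, plus strand), which encodes the sensor, had 8299, 6072 and 6909 counts in the PBS libraries, 5412, 5156 and 5481 in the RANKL libraries, and 1346, 6067 and 2437 in the vitamin libraries. Replicates 1 and 3 of the vitamin group lay below every other library, and replicate 2 lay above the RANKL libraries and just below the lowest PBS library. No change was therefore called against RANKL (-0.62, SE 0.385, adjusted p = 0.243, edgeR), whereas without replicate 2 the value was -1.27 and was called (adjusted p = 0.00225, edgeR). Against PBS, Nlrp3 fell by 1.18 on the log2 scale (SE 0.389, adjusted p = 0.0375, edgeR), a call that was lost in 10 of 18 alternatives, and without replicate 2 of the vitamin group the value was -1.83 (adjusted p = 0.000342, edgeR). RANKL against PBS gave -0.56 (adjusted p = 0.496, edgeR).

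Pycard (ENSMUSG00000030793, chromosome 7, 127989708 to 127993867, minus strand), the adaptor gene, had 3185, 3208 and 2933 counts with PBS, 3841, 3751 and 3735 with RANKL, and 746, 2542 and 899 with the vitamins. The vitamin libraries lay below all others, and replicate 2 was nearest to them. Pycard fell by 1.35 on the log2 scale against RANKL (SE 0.335, adjusted p = 0.015, edgeR) and fell by 1.21 against PBS (SE 0.334, adjusted p = 0.0184, edgeR), the latter lost in 5 of 18 alternatives. Without replicate 2 of the vitamin group the difference from RANKL was -1.96 (adjusted p = 6.72e-06, edgeR) and that from PBS -1.83 (adjusted p = 8.32e-06, edgeR). The call against RANKL was lost without RANKL replicate 1 (-1.31, adjusted p = 0.0505, edgeR) or without vitamin replicate 3 (-1.14, adjusted p = 0.0631, edgeR). The RANKL libraries lay above the PBS libraries, yet the fitted change after scaling was 0.13 (SE 0.329, adjusted p = 0.885, edgeR).

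Casp1 (ENSMUSG00000025888, chromosome 9, 5298508 to 5307290, plus strand), the protease gene, had the narrowest range of group means among the 9 tested genes (0.37 on the log2 CPM scale). Its counts were 5162, 5923 and 4900 with PBS, 4989, 5690 and 5244 with RANKL, and 3761, 4466 and 4047 with the vitamins, so the vitamin libraries lay below the other 6. Mean FPKM was 22.8 ± 2.14 (SD, n = 3), 22.4 ± 1.68 and 17.3 ± 1.22 in that order. The change with the vitamins was -0.22 against RANKL (SE 0.0955, adjusted p = 0.101, edgeR) and -0.38 against PBS (SE 0.0956, adjusted p = 0.0129, edgeR), the latter a call that was lost in 4 of 18 alternatives. Limma on log2(FPKM + 1) called the difference from RANKL (-0.35, adjusted p = 0.0251). RANKL against PBS gave -0.15 (adjusted p = 0.445, edgeR).

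Il18 (ENSMUSG00000039217, chromosome 9, 50554827 to 50581840, plus strand), the other cytokine that caspase-1 activates, fell with the vitamins in every library. The counts were 509, 664 and 434 with PBS, 733, 525 and 787 with RANKL, and 169, 239 and 227 with the vitamins. Here replicate 2 of the vitamin group was close to replicate 3, and the vitamin libraries overlapped neither other group. Il18 fell by 1.55 on the log2 scale against RANKL (SE 0.242, adjusted p = 0.0024, edgeR) and fell by 1.34 against PBS (SE 0.241, adjusted p = 0.0028, edgeR), and both calls held in all 18 alternatives. RANKL and PBS overlapped (0.21, 95% interval -0.32 to 0.74, adjusted p = 0.704, edgeR). On the opposite strand Il18 overlaps Bco2, with 1886 counts over all libraries, and Tex12, with 36.

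Il10 (ENSMUSG00000016529, chromosome 1, 131019845 to 131024974, plus strand), the anti-inflammatory member, was nearly lost with the vitamins. It had 98, 141 and 75 counts with PBS, 86, 81 and 24 with RANKL, and 0, 7 and 0 with the vitamins, where replicate 2 was the only library above 0. The vitamin libraries were below all others, and PBS and RANKL overlapped. The log2 fold change of Il10 was -4.61 against RANKL (SE 1.05, adjusted p = 0.0103, edgeR) and -5.47 against PBS (SE 1.07, adjusted p = 0.00403, edgeR), called in all 18 alternatives. Both values rest on the 7 counts of vitamin replicate 2, and that against PBS was -4.88 without vitamin replicate 3. Without vitamin replicate 2 the vitamin group is at 0. Il10 was then at least 21-fold lower than with RANKL (adjusted p = 0.000897, edgeR) and at least 34.8-fold lower than with PBS (adjusted p = 0.000495, edgeR), against the floor of 3 counts per library. The RANKL libraries gave -0.86 against PBS (adjusted p = 0.645, edgeR).

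Tnf (ENSMUSG00000024401, chromosome 17, 35199381 to 35202007, minus strand) was not called in any comparison, and 2 libraries decided its means. It had 1231, 854 and 780 counts with PBS, 252, 990 and 208 with RANKL, and 237, 2144 and 274 with the vitamins. Replicate 2 was the high library in both RANKL-treated groups, while the other 4 RANKL-treated libraries lay between 208 and 274, below every PBS library. The edgeR test gave -1.16 for RANKL against PBS (SE 0.823, adjusted p = 0.509), 0.94 for the vitamins against RANKL (SE 0.819, adjusted p = 0.408) and -0.22 for the vitamins against PBS (SE 0.811, adjusted p = 0.85). Without replicate 2 of the vitamin group, the value against RANKL turned to -0.66 (adjusted p = 0.404, edgeR), and that against PBS was -1.82 and was called (adjusted p = 0.0387, edgeR). With replicate 2 of every group left out, a choice made after the data were seen, RANKL against PBS gave -2.27 (adjusted p = 0.00425, edgeR).

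Il6 (ENSMUSG00000025746, chromosome 5, 30013114 to 30019981, plus strand) had 0 counts in 8 of the 9 libraries and 8 in replicate 2 of the vitamin group (FPKM 0.0378). A count of 0 allows up to 3 counts, at most 4.55e-06% of a library. No test was made, and no difference in Il6 was detectable at this depth.

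Among the vitamin libraries, 7 of the 10 genes (Tnf, Nlrp3, Pycard, Casp1, Il18, Il10 and Il6) had their highest count in replicate 2, and Il1a and Il1rn had their lowest there. Il6 and Il10 had only 8 and 7 counts there, and Il18 had 239 against 227 in replicate 3. The same share over all genes was not computed. In vitamin replicate 2 the summed macrophage markers were also the highest of the vitamin group (19500 CPM, against 8300 and 11400). Lyz2, the lysozyme gene, carried this: the other 6 markers summed to 4370 CPM there, against 3620 and 4230 in replicates 1 and 3. The part of these levels in the results was not tested.

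**Figure D3:**
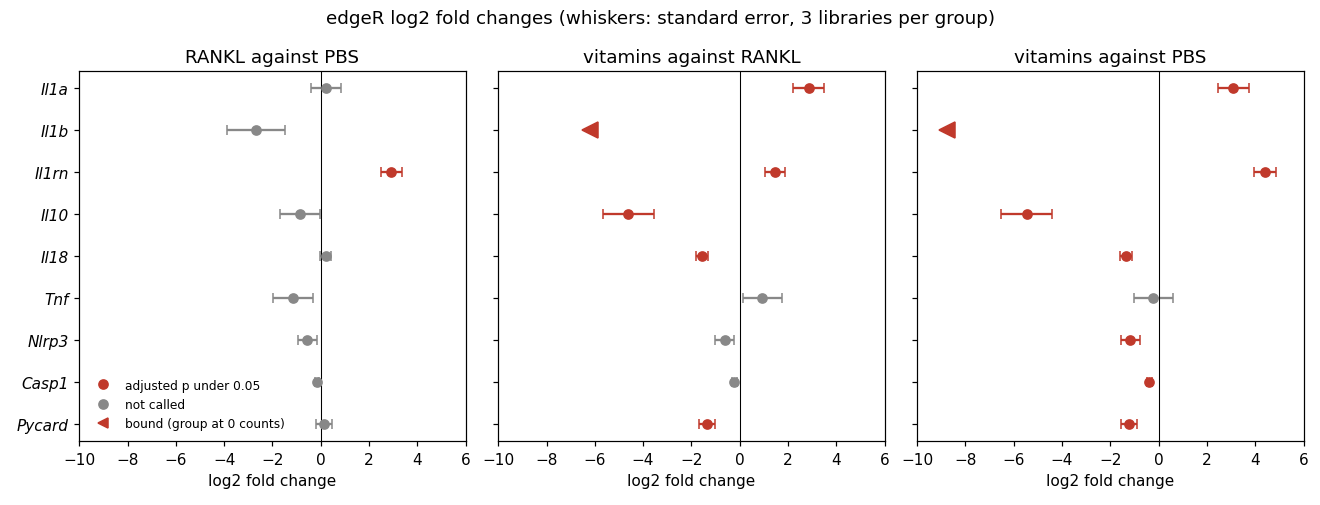
Log2 fold changes (x axis) of the 9 genes tested by edgeR (rows) in the 3 comparisons, with whiskers of 1 standard error and 3 libraries per group. Red marks an adjusted p under 0.05 and grey none, and the triangles give the bound for Il1b, whose vitamin libraries are at 0. In the middle panel Il1a (2.86) and Il1rn (1.46) lie right of 0, and Il10 (-4.61), Il18 (-1.55) and Pycard (-1.35) lie left of it.

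Groups were also compared without a model, on counts scaled to CPM by TMM factors. They did not overlap for 4 of the 10 genes between RANKL and PBS (Il1rn, Nlrp3, Casp1 and Pycard), beside 35.7% of all tested genes. With the vitamins, 7 did not overlap with RANKL, beside 46.8%, and 8 did not overlap with PBS, beside 53.1%. Casp1 overlapped between RANKL and PBS in FPKM, which is not scaled by these factors. By exact permutation (two-sided), the smallest p for 3 libraries in each group is 0.1, which each non-overlapping gene reached. The median log2 fold change of the 9 tested genes was -0.15, -0.62 and -1.18 in RANKL against PBS, vitamins against RANKL and vitamins against PBS, beside -0.04 over all genes in each.

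The order of the 10 genes by FPKM, which is scaled to transcript length, changed between the groups. With PBS the order of mean FPKM was Nlrp3 (23.5), Casp1 (22.8), Pycard (11), Il1b (9.1), Tnf (7.83), Il18 (6.95), Il10 (1.06), Il1rn (0.789), Il1a (0.131) and Il6 (listed at 0). Of the neighbours, Nlrp3 and Casp1 overlapped between libraries, as did Pycard with Il1b, Il1b with Tnf, Tnf with Il18, and Il10 with Il1rn. Il1rn had rank 8 with PBS, rank 5 with RANKL (6.65 FPKM) and rank 2 with the vitamins (15.9 FPKM), where its libraries overlapped those of Casp1 (17.3) and Nlrp3 (10.6). In the RANKL group Casp1 (22.4), Nlrp3 (17.4), Pycard (13.1) and Il18 (8.7) had ranges that did not overlap each other, and from Il18 to Il1a each gene overlapped the next. In the vitamin group the ranges from Casp1 down to Il18 (2.71) overlapped from one gene to the next, whereas Il18, Il1a (1.11) and Il10 (0.0215) were separate.

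In the list of interleukin-1 and interleukin-18 receptors, decoys, relatives and signalling genes, most calls with the vitamins were falls. The receptor genes Il1r1 (-1.09, adjusted p = 0.107), Il1rap (0.38, adjusted p = 0.0919) and Il18rap (0.30, adjusted p = 0.877, all edgeR) were not called against RANKL. Of 16 genes listed, 14 were in the table and 11 were tested. Against RANKL, 6 fell and 1 rose (median log2 fold change -0.89, beside -0.04 over all genes), among 33.7% of all tested genes called in either direction, and against PBS 7 fell and 2 rose, among 40.8%. Myd88, the adaptor shared by these receptors, had 6077, 5753 and 5642 counts with RANKL and 1904, 3748 and 2034 with the vitamins (-1.07, SE 0.18, adjusted p = 0.00327, edgeR). The kinase genes Irak4 (-0.89, adjusted p = 0.00328) and Irak3, a negative regulator (-1.42, adjusted p = 0.00377), also fell, and Irak2 rose (1.78, adjusted p = 0.00822, all edgeR). Irak2 had 2882, 2903 and 3106 counts with RANKL and 12133, 4140 and 10167 with the vitamins, so replicate 2 was again nearest to RANKL.

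Between RANKL and PBS, with 3.61% of all tested genes called, 1 gene of this list was called: Il1r1, the signalling receptor of both interleukin-1 ligands, fell by 2.06 on the log2 scale (SE 0.475, adjusted p = 0.0497, edgeR). Its counts were 452, 445 and 591 with PBS, 173, 71 and 148 with RANKL, and 87, 34 and 42 with the vitamins. All RANKL libraries were below all PBS libraries, but the call was lost in 7 of the 9 fits that left out 1 library (every PBS or RANKL library, and vitamin replicate 3). With the replicate block 2 genes of the list were called, beside 4.85% of all tested genes.

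The list of other inflammasome sensors and partners held 21 genes, of which 20 were in the table and 19 were tested. With the vitamins 8 fell and 3 rose against RANKL (median -0.34), and 9 fell and 5 rose against PBS, where 17.2% of all tested genes were called lower and 16.4% higher against RANKL, and 21.0% and 19.8% against PBS. The 4 lowest adjusted p against RANKL were all falls. Gsdmd encodes gasdermin D, the pore protein that caspase-1 cuts. It had 9241, 7532 and 8543 counts with PBS, 18512, 16628 and 18657 with RANKL, and 5461, 8194 and 6171 with the vitamins. It rose with RANKL by 0.94 (SE 0.135, adjusted p = 0.00932, edgeR) and with the vitamins changed by -1.30 (SE 0.137, adjusted p = 0.000557, edgeR). Gsdmd therefore stood highest in the RANKL group, with no overlap with PBS or vitamin libraries.

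Txnip, whose product binds thioredoxin and has been linked to NLRP3, fell furthest of those named, from 29472, 27464 and 27202 counts with RANKL to 675, 3508 and 1107 with the vitamins (-3.92, SE 0.476, adjusted p = 0.000937, edgeR), and -4.75 without vitamin replicate 2. The flagellin pathway sensor gene Nlrc4 fell by 1.40 (SE 0.188, adjusted p = 0.00132, edgeR), and P2rx7, the ATP-gated channel that triggers NLRP3, fell by 1.46 (SE 0.198, adjusted p = 0.0014, edgeR). Between RANKL and PBS, with 3.61% of all tested genes called, 1 gene of this list rose (Gsdmd) and 1 fell: Panx1, a channel that releases ATP, fell by 1.52 on the log2 scale (SE 0.222, adjusted p = 0.00952, edgeR), a call lost without PBS replicate 1 (0.0539) or 3 (0.0529). Of Naip1, Naip2, Naip5 and Naip6, Naip2 was called higher with the vitamins against RANKL, and against PBS Naip1 and Naip2 were called higher and Naip5 and Naip6 lower. The Naip2 call against RANKL was lost in 4 of the 9 fits that left out 1 library. Against PBS the calls were lost in 2 (Naip1), 5 (Naip2), 1 (Naip5) and 5 (Naip6) of these fits. The 4 Naip genes are close paralogs, so counting could split or share their reads.

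For the receptors, release factors and regulators of TNF, interleukin-6 and interleukin-10, all 18 listed genes were tested. Against RANKL the vitamins gave 6 falls and 3 rises (median -0.01), beside 33.7% of all tested genes called, and against PBS 7 falls and 1 rise, a share near the 40.8% of all tested genes. Of the 6 receptor genes of the list, Il6ra, Il10ra and Tnfrsf1b fell, and Tnfrsf1a (0.09) and Il10rb (0.08) were not called. The shared interleukin-6 receptor subunit gene Il6st rose (1.06, adjusted p = 0.0181, edgeR), a call lost in 5 of the 9 fits that left out 1 library. Il6ra had 15202, 10928 and 15768 counts with RANKL and 1124, 4449 and 2073 with the vitamins (-2.37, SE 0.373, adjusted p = 0.0025, edgeR), and Il10ra 16952, 10523 and 18761 against 4950, 4095 and 4764 (-1.58, SE 0.251, adjusted p = 0.00257, edgeR). Maf, which encodes a transcription factor that activates Il10, fell by 3.05 (SE 0.516, adjusted p = 0.00329, edgeR), with -3.97 without vitamin replicate 2. Rhbdf2 encodes iRhom2, which carries the TNF-releasing protease ADAM17 to the cell surface. It fell with RANKL by 0.59 (SE 0.113, adjusted p = 0.0254, edgeR), a call lost without any 1 PBS or RANKL library or vitamin replicate 3, and rose with the vitamins by 0.82 (SE 0.113, adjusted p = 0.00143, edgeR). In RANKL against PBS, Rhbdf2 was the only call in this list without the replicate block, beside 3.61% of all tested genes, and 4 genes were called, all lower, with it, beside 4.85%.

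Other cytokine genes included Csf1 and Osm, which rose with the vitamins. Of 24 listed, 21 were in the table and 15 were tested, and 4 rose and 1 fell with the vitamins against RANKL (median -0.33), near the 33.7% of all tested genes called. Among the rises, that of Il4 (1.68) lost its call in 8 of the 9 fits that left out 1 library. Csf1, the gene of M-CSF, had 65, 40 and 61 counts with RANKL and 1655, 353 and 1162 with the vitamins (4.46, SE 0.62, adjusted p = 0.00151, edgeR). Osm, the gene of oncostatin M, had 244, 227 and 229 against 2743, 695 and 2283 (3.24, SE 0.49, adjusted p = 0.00207, edgeR). Both were lowest in replicate 2 among the vitamin libraries and still above every RANKL library. Mif, the gene of macrophage migration inhibitory factor, rose by 0.99 (SE 0.203, adjusted p = 0.00671, edgeR), and Il34, which encodes another ligand of the M-CSF receptor, went from 11, 40 and 18 counts to 0 in each vitamin library (at least 7.62-fold lower, adjusted p = 0.0195, edgeR). The Il34 call was lost without any 1 RANKL library or vitamin replicate 3, and its bound was 4.78 without RANKL replicate 2.

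In RANKL against PBS, 2 of the 15 cytokine genes rose, beside 2.35% of all tested genes. Lif, the gene of leukaemia inhibitory factor, had 0 counts in each PBS library and 150, 106 and 67 in the RANKL libraries (at least 35.4-fold higher, adjusted p = 0.00853, edgeR). Mif rose by 0.89 (SE 0.203, adjusted p = 0.0484, edgeR), a call lost with the replicate block (adjusted p = 0.0603, edgeR) and in 8 of the 9 fits that left out 1 library, all but that without vitamin replicate 2. Against PBS the vitamin libraries had 4 of the list higher and 4 lower, beside 19.8% and 21.0% of all tested genes.

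**Figure D4:**
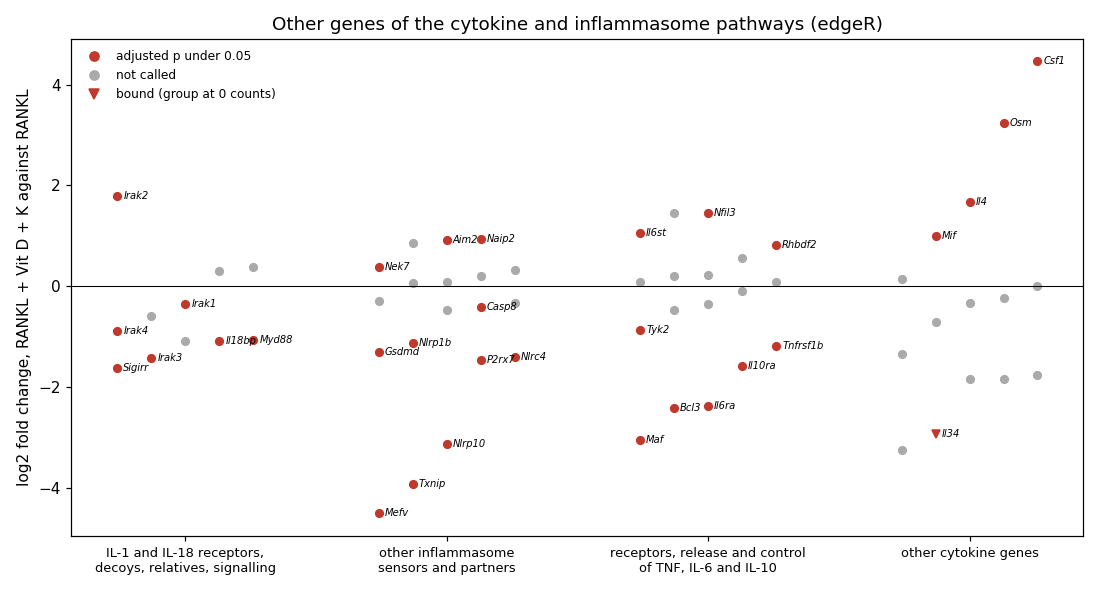
Log2 fold changes of the vitamin group against the RANKL group (y axis, edgeR, 3 libraries per group) for the tested genes of the 4 related lists (x axis). Each point is a gene, red and named where the adjusted p was under 0.05 and grey otherwise, and the triangle is the bound for Il34, whose vitamin libraries are at 0. The list of other inflammasome sensors and partners has 8 red points below 0 and 3 above, and Csf1 (4.46) is the highest point.

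Il1b had the widest range of group means (8.61 on the log2 CPM scale), and the genes whose centred log2 CPM followed it most closely over the 9 libraries were Ms4a4a, Apoc2 and Hpgd, with root mean square differences of 1.02, 1.13 and 1.16. Ms4a4a, which encodes a macrophage membrane protein, had 5877, 4254 and 5600 counts with PBS, 3273, 555 and 3750 with RANKL, and 16, 18 and 11 with the vitamins. Apoc2, the gene of apolipoprotein C-II, had 3978, 3364 and 4714, then 978, 338 and 1039, then 11, 36 and 14. Hpgd, the gene of the prostaglandin-degrading dehydrogenase, had 17648, 15378 and 20029, then 8002, 2830 and 8212, then 55, 184 and 64. All 3 shared with Il1b the step down at each treatment and the low replicate 2 in the PBS and RANKL groups, but kept counts above 0 with the vitamins. The likeness is a description over libraries that share a treatment.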

How the data were processed

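RNA of 9 BMDM cultures or pools was selected with oligo(dT) and sequenced as paired-end reads. The authors deposited 1 table, which holds whole-number counts per gene and FPKM values. Per the labels, cutadapt 1.9, HISAT2 2.0.4, StringTie 1.3.4d and edgeR were used. The build named there, hg38, does not belong to mouse IDs, and the deposited coordinates are those of GENCODE M21 on GRCm38 for 87.2% of matched IDs and 9 of the 10 genes (Casp1 is the exception). Strand and multiple-mapping settings are not given in the sources used here. The value 4 occurred 2.22 times as often as the values 3 and 5 did on average, so reads may stand in the counts more than once, and floors cover counting error only.

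The counts were tested in R 4.3.3 with edgeR 4.0.16 (filterByExpr, TMM, quasi-likelihood test, 1 model of 9 libraries, Benjamini-Hochberg over 17002 genes, threshold 0.05). The SE is the log2 fold change divided by the square root of F. Genes at 0 in a group were given a bound against 3 counts per library. The labels state no pairing by replicate number. Deviations of same-numbered PBS and RANKL libraries had correlations of 0.122, 0.219 and 0.155, and those of different numbers -0.144 to 0.007. For same-numbered vitamin and RANKL libraries they were 0.006, 0.043 and 0.107. The replicate block took all 9 libraries by number. Alternatives were a replicate block, DESeq2 1.42.0, limma 3.58.1 on log2(FPKM + 1) and log2(FPKM + 0.1), median-of-ratios size factors, no filter, only 2 groups, leaving out each library and, added after the data were seen, counts divided by 4 and leaving out replicate 2 of every group. The scripts were tested on simulated data.

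The 10 genes and the lists were chosen with earlier results of these data known. Named beside the 10 were treatment genes, the 4 lowest adjusted p of each list in vitamins against RANKL and the 2 lowest in RANKL against PBS among calls, and the 3 genes most like the gene of widest range. Genes printed beyond this rule (overlapping genes, Naip paralogs, named markers, further receptor genes of the lists, and Il4) were chosen after their values were seen.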

Additional observations from a re-analysis of the deposited data

How the results depend on the processing

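Counts of called genes moved when libraries were left out and, in RANKL against PBS, with the replicate block. Of the 10 genes, the count higher in RANKL against PBS was 0 to 1 over the fits leaving out 1 library, that higher with the vitamins against RANKL was 1 to 2, and that lower with the vitamins against PBS was 3 to 7. A fit of the 2 groups alone gave 1 gene higher with the vitamins against RANKL. The replicate block gave 1 gene lower in RANKL against PBS (Il1b), and so did leaving out replicate 2 of every group (Tnf, 1 gene). In the related lists, the replicate block moved the calls in RANKL against PBS to 2 (interleukin-1 and interleukin-18), 4 (TNF, interleukin-6 and interleukin-10) and 1 (other cytokines), and those of other cytokines with the vitamins against RANKL to 3, where Il34 (adjusted p = 0.0702, edgeR) and Il4 (adjusted p = 0.0704, edgeR) were lost. With the block, 4.85% of all tested genes were called in RANKL against PBS. In vitamins against RANKL it called 2954 higher and 2919 lower of 17002. Leaving out vitamin replicate 2 moved RANKL against PBS to 2, 4 (inflammasome partners), 4 and 6 calls in these lists, and vitamins against RANKL to 14 (TNF, interleukin-6 and interleukin-10) and 8 (other cytokines). Calls over all genes rose as well. In RANKL against PBS they were 972 higher and 931 lower of 17806, from 400 and 214 of 17002 with every library. In vitamins against RANKL they were 3773 higher and 4486 lower, from 2796 and 2929. Leaving out replicate 2 of every group gave 2, 6 and 5 in RANKL against PBS and 14 and 10 in vitamins against RANKL. Over all 17214 genes of that fit, 987 were called higher and 753 lower in RANKL against PBS, and 4233 higher and 4719 lower in vitamins against RANKL. Directions turned for Il1a in RANKL against PBS (-0.39 to 0.62 leaving out 1 library, -0.45 without replicate 2 of every group) and for Tnf: -0.66 to 1.95 against RANKL with the vitamins, the lowest without vitamin replicate 2, and -1.82 to 0.27 against PBS, above 0 without PBS replicate 1 (0.08), vitamin replicate 1 (0.27) or vitamin replicate 3 (0.25), and -1.91 without replicate 2 of every group. The cause was not tested. The block changed no other call among the 10 genes. Deviations of vitamin and RANKL libraries of the same number had correlations of 0.006, 0.043 and 0.107. DESeq2 gave no adjusted p for Tnf. Depth limits Il6 (8 counts in all) and the low Il1a and Il10.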
